A study of Mus musculus with 11 samples.

Results

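The acinar digestive enzymes and acinar regulators were examined as a group of 31 genes among the 55536 annotated genes counted in islet RNA. The members were fixed by name. They comprised 27 genes for secreted or zymogen granule proteins (6 trypsinogens, 3 chymotrypsin-like proteases, 4 elastases, 2 carboxypeptidases, 6 lipolytic proteins, 2 amylases, 1 ribonuclease and 3 granule proteins) and 4 transcription factors, *Bhlha15*, *Ptf1a*, *Rbpjl* and *Nr5a2*. All 31 symbols were found once each, and 29 members passed the filter on low counts in at least 1 comparison, whereas *Prss1* and *Cela3a* passed in none. Bulk RNA-seq was available for 11 libraries from islets of wild-type C57BL/6J female mice. Multipara mice were 9 weeks old at the start, went through 3 pregnancies one after another and were studied 3 weeks after the last delivery, and virgin mice of the same age were the controls. In 3 virgin and 4 multipara libraries the mice had been injected with S-961, a peptide antagonist of the insulin receptor, at 100 nmol/kg 2 times a day for 3 days, and 2 virgin and 2 multipara libraries came from mice without S-961. The untreated libraries are labelled as without treatment, and no vehicle-injected group was used here. Libraries are named by group and replicate number, and values for a group are given in the order of these numbers.

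Acinar cells form the exocrine bulk of the pancreas that surrounds the islets. They make digestive enzymes, most of them as inactive zymogens, store them in apical granules and release them into the ducts. Their gene program is driven by the PTF1 complex, in which the basic helix-loop-helix factor PTF1A pairs with an E protein and with RBPJL, and is maintained by MIST1 (encoded by *Bhlha15*), which shapes the secretory machinery, and by the nuclear receptor NR5A2. Isolated islets can carry attached acinar cells, and in bulk RNA fewer acinar cells and less enzyme RNA per acinar cell cannot be told apart.

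The factors named above are known to act through short DNA elements, and 4 promoters are shown before the values with the letters of those elements marked where they occur. RefSeq promoter windows of GRCm38.p6 (250 bases before to 50 bases after the start) existed for 26 of the 31 members, 22 of them secreted. The letters searched on both strands were CANNTG (the E-box of basic helix-loop-helix factors), TTTCCCA (the box of RBPJL and RBPJ), CANNTG followed by TTTCCCA after a gap of 5 to 25 bases on 1 strand (the bipartite PTF1 arrangement) and CAAGGTCA (NR5A2). CANNTG was present in 18 of 22 secreted windows (81.8%) and in 72.3% of all 32851 windows. TTTCCCA was present in 6 of 22 (27.3%) against 8.06% of all windows, the bipartite arrangement in 3 of 22 (13.6%; *Cel*, *Cela3a* and *Cpa1*) against 0.755%, and CAAGGTCA in 1 of 22 (4.55%; *Cel*) against 1.56%. Of the 4 transcription factor windows, 3 held CANNTG and none held the other elements. None of the letters searched occurred in the windows of *Pnlip*, *Pla2g1b*, *Rnase1*, *Sycn* and *Ptf1a*. The 250 bases before the start are printed below in the direction of the gene, with every match in capitals. *Cel* was chosen for holding all 3 elements, *Ctrb1* for a forward E-box next to a forward TTTCCCA, *Cela3a* for an arrangement on a gene that was hardly read, and *Bhlha15* as the most abundant factor.
Cel (chr2:28563404-28563653, minus strand): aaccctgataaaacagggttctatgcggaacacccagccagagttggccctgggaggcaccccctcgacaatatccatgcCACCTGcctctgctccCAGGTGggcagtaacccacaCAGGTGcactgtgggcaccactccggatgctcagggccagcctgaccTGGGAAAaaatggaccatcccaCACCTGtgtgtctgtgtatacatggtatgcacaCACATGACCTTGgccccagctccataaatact
Ctrb1 (chr8:111691011-111691260, minus strand): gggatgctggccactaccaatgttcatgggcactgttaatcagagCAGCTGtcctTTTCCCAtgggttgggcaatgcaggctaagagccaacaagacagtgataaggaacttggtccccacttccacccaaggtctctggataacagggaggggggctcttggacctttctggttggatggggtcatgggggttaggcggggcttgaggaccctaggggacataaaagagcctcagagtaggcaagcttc
Cela3a (chr4:137409792-137410041, minus strand): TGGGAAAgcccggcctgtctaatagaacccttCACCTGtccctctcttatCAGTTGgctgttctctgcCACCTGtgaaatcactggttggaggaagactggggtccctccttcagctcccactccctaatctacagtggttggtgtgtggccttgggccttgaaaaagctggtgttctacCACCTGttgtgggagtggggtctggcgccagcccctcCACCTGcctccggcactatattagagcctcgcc
Bhlha15 (chr5:144190036-144190285, plus strand): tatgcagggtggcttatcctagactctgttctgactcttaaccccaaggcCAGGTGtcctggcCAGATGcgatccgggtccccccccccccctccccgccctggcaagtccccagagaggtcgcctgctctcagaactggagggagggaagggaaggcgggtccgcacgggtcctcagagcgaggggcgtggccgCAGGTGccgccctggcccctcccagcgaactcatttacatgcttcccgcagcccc
In *Cel* the reverse complement of TTTCCCA lay 87 to 81 bases before the start and belonged to an E-box 65 to 60 bases before it, and the NR5A2 letters overlapped the E-box nearest the start. In *Ctrb1* an E-box 205 to 200 bases before the start was followed by TTTCCCA at 195 to 189 bases, a gap 1 base too short for the arrangement searched. In *Cela3a* the reverse complement of TTTCCCA stood 250 to 244 bases before the start beside an E-box at 218 to 213 bases. *Bhlha15* held 3 E-boxes. A match of letters is a description and not a bound site.

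Library totals ran from 22028507 to 32234146 counts, so counting error was small beside the spread between S-961 libraries for all but the lowest members. In untreated libraries it was not always smaller than the spread, as for *Cpb1* (69 and 70 counts) and *Gp2* (12 and 11 counts) in virgin untreated. A library in each multipara group stood apart from the others of its group in genes other than the members. *Mki67*, a marker of dividing cells, was at 95.4, 67.1 and 43.0 CPM (counts scaled to a common library total) in multipara S-961 1 to 3 but at 3.95 CPM in multipara S-961 4, against 3.12 to 13.9 CPM in virgin S-961 libraries, and results of the S-961 comparison are therefore also given without it. Whether that library, and the parity groups of the S-961 libraries in general, are labelled correctly could not be settled from the files. The paper reports cell cycle genes, *Cdk1* among them, as lower in multipara than in virgin islets after S-961. By Ki67 staining it also reports less beta cell proliferation after S-961 in multipara than in virgin mice, and likewise in transplanted islets. Under the labels used here, 6 markers of dividing cells, *Cdk1* among them, had log2 fold changes of 2.56 to 4.17 for multipara against virgin, with none called. The direction of every parity difference under S-961 rests on these labels and would turn if they were exchanged. An exchange of the whole groups would not match the group sizes that the paper states. Multipara untreated 1 had more immune RNA than the other libraries (summed CPM of 7 immune markers 1780, against 126 to 338 elsewhere) and more dividing-cell RNA than multipara untreated 2 (*Mki67* 37.5 against 2.09 CPM). The islet label fitted the RNA, since *Ins1* and *Ins2* took 13.2 to 20.7% of counts in S-961 libraries and 35.3 to 41.4% in untreated ones.

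The secreted members made up a small and variable share of islet RNA, and the share was far larger in the S-961 libraries. It was 0.896, 1.17 and 0.276% of all counts in virgin S-961, 2.26, 1.88, 1.76 and 0.744% in multipara S-961, 0.00868 and 0.0206% in virgin untreated and 0.0231 and 0.0162% in multipara untreated. Exact binomial 95% intervals were at most 0.0052 percentage points to either side in S-961 libraries and 0.00058 in untreated ones, and cover counting error only. Every S-961 library lay above every untreated library. The ratio of the group means was 53.1 for virgin mice (0.78 ± 0.458% against 0.0147 ± 0.00844%, SD, n = 3 and 2) and 84.3 for multipara mice (1.66 ± 0.649% against 0.0197 ± 0.00491%, SD, n = 4 and 2). The virgin ratio was 37.8 without virgin untreated 1 and 89.8 without virgin untreated 2. Between the groups labelled multipara and virgin the ratio was 2.13 with S-961 and 1.34 without, and in both cases the groups overlapped. The untreated ratio was 0.953 without virgin untreated 1 and 2.26 without virgin untreated 2. Part of the untreated spread came from *Amy2a5*, whose reads were divided unevenly between amylase genes as described below, and with both amylases left out the 4 ratios were 59.6, 78.7, 2.07 and 1.56 in the same order. The 4 transcription factors together took 0.00693 to 0.0159% of counts with S-961 and 0.00233 to 0.00369% without.

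**Figure D1:**
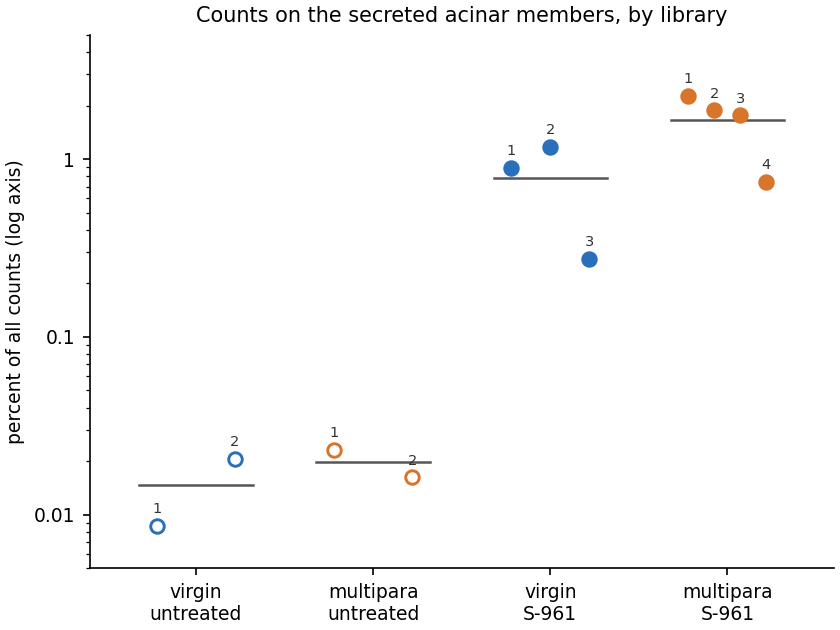
Share of all counts on the 27 secreted members in each library, in percent on a log axis. Points are libraries with their replicate numbers, filled for S-961 and open for untreated, and lines are group means. The 7 S-961 libraries lie between 0.276 and 2.26% and the 4 untreated libraries between 0.00868 and 0.0231%.

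Compared per kilobase of merged annotated exons and taken as single genes, *Ctrb1* had the highest value of the members in S-961 libraries (mean 891 CPM per kb in virgin and 1780 in multipara). In multipara S-961 it was followed by *Cela2a* (878), *Prss2* (816), *Amy2a5* (638), *Try4* (624), *Clps* (584) and *Pnlip* (552). In virgin S-961 the order was different, with *Prss2* (452), *Cela2a* (436), *Clps* (317), *Cpa1* (311), *Amy2a5* (263), *Pnlip* (241) and *Try4* (229). After *Ctrb1*, the gaps between neighbours in these orders were smaller than the SD between libraries of the group. The orders are approximate, because merged exons can be longer than a transcript and *Amy2a5* shares reads with other amylase genes. *Amy2a1* to *Amy2a5* together were at 1885 to 6978 CPM in virgin S-961, where *Ctrb1* was at 311 to 1199. The sum was not put on the per-kilobase scale (merged exons of 3973 bases for *Amy2a5* and 878 for *Ctrb1*). Pancreatic amylase as a whole could therefore rank above *Ctrb1*. *Ctrb1* also led in untreated multipara libraries (31.9 CPM per kb), where *Clps* was close behind at 29.9, and *Clps* led in untreated virgin libraries at 27.3 against 17.0 for *Ctrb1*. At the other end, *Prss1* reached at most 4.05 and *Cela3a* at most 3.03 estimated counts in any library and both were 0 in all untreated libraries, so that no fold change was formed. Their close relatives *Prss2* (chromosome 6, 41521787 to 41525079, plus strand) and *Cela3b* (chromosome 4, 137420999 to 137430540, minus strand) were abundant.

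The comparison of S-961 with no treatment asked how the islet transcriptome of each parity group differed between injected and untreated mice. Without a vehicle-injected group or a named day of isolation, injection and isolation cannot be told apart from S-961. In virgin mice 24 of 29 tested members were higher with S-961 and none was lower (edgeR quasi-likelihood test, Benjamini-Hochberg adjusted p under 0.05), where 18.8% of all 17996 genes tested were called higher and 17.6% lower. In multipara mice 27 of 29 were higher and none lower, against 18.2% and 19.4% of all genes. The median log2 fold change of the 25 tested secreted members was 5.20 in virgin and 5.74 in multipara mice, and that of all genes was -0.04 and 0.03. In each parity group 27 of 29 members did not overlap between treatments and were higher with S-961, against 33.8% of all genes in virgin and 26.2% in multipara mice. The shares of all genes lower with S-961 without overlap were 34.4% and 22.3%. The 2 comparisons use different libraries but 1 joint fit. Without multipara S-961 4, 28 members were called in multipara mice and the secreted median was 5.98. Leaving out any other single library left 22 to 25 calls in virgin and 24 to 27 in multipara mice.

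**Figure D2:**
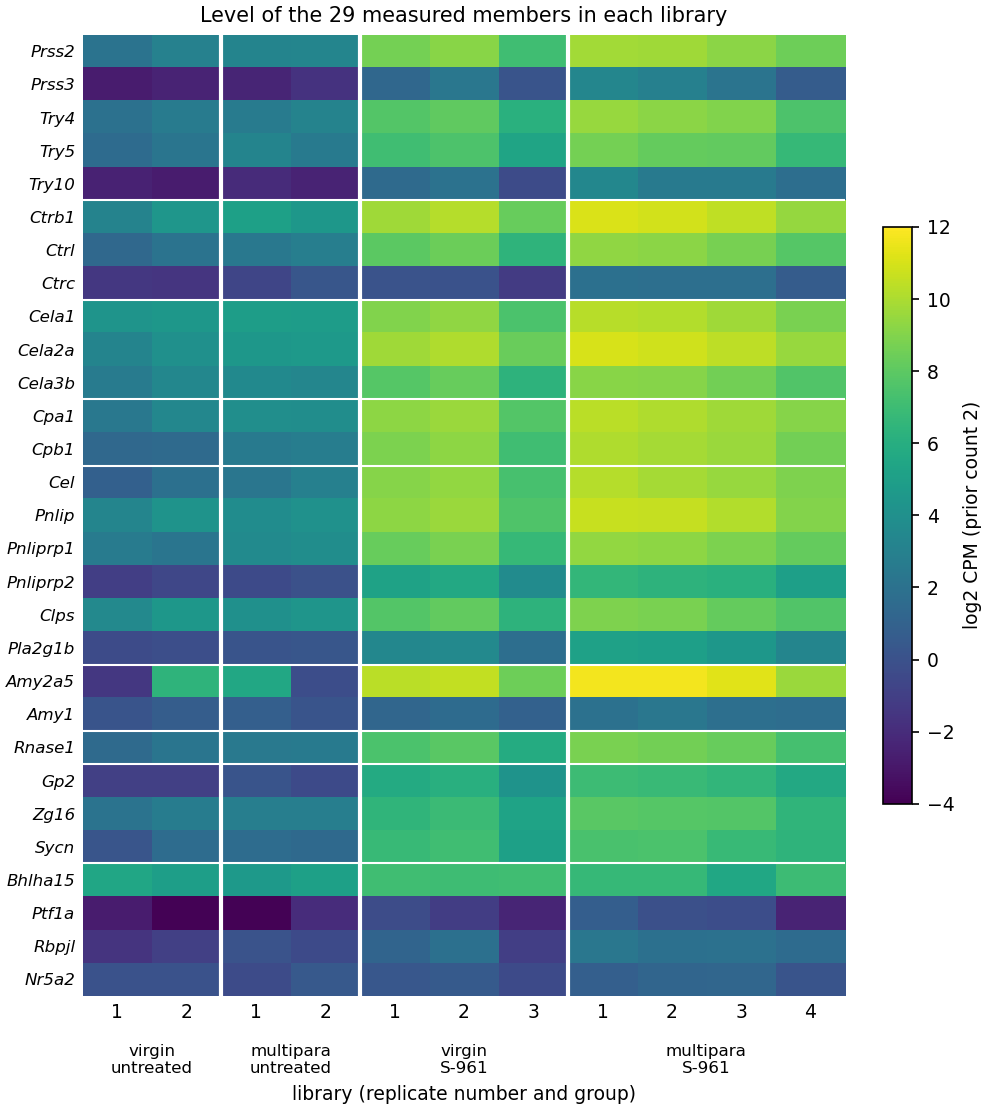
Level of the 29 members that passed the filter (rows, grouped by role) in each of the 11 libraries (columns), as log2 CPM with a prior count of 2. Within each parity group every secreted member is brighter in all S-961 columns than in the untreated columns, virgin S-961 3 is the dimmest S-961 column, and *Bhlha15* changes far less than the enzymes.

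Trypsinogens are the zymogens that the gut enzyme enteropeptidase turns into trypsin, which then activates the other proteases. *Prss2* was at 396, 573 and 137 CPM in virgin S-961, 870, 833, 603 and 354 in multipara S-961, 4.28 and 8.26 in virgin untreated and 9.18 and 9.60 in multipara untreated. The treated and untreated ranges were far apart in both parity groups. Its log2 fold change with S-961 was 5.87 ± 0.70 (SE, adjusted p = 2.78e-04) in virgin and 6.09 ± 0.70 (adjusted p = 2.00e-04) in multipara mice. All 5 trypsinogens tested rose in both parity groups, by 4.63 to 5.87 and 4.94 to 6.09 on the log2 scale. *Try4*, *Try5*, *Prss3* and *Try10* lie with *Prss1* and *Prss2* in 1 cluster of near-identical genes on chromosome 6 and carried counts that were not whole in 6 to 11 libraries, so that the division of reads among them is uncertain. The virgin call of *Prss3* was lost without virgin untreated 1 (adjusted p = 0.0567). *Prss2* itself had whole counts in every library.

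Chymotrypsins and elastases cut proteins after aromatic and small residues, respectively. *Ctrb1*, chymotrypsinogen B (chromosome 8, 111686519 to 111691010, minus strand), was at 837, 1199 and 311 CPM in virgin S-961, 2202, 1926, 1420 and 716 in multipara S-961, 9.02 and 20.8 in virgin untreated and 33.9 and 22.2 in multipara untreated. The lowest S-961 library was thus well above the highest untreated one. *Ctrb1* rose with S-961 by 5.70 ± 0.75 (SE, adjusted p = 4.26e-04) in virgin and 5.74 ± 0.74 (adjusted p = 3.57e-04) in multipara mice on the log2 scale. *Cela2a*, elastase 2A, was at 837, 1093 and 321 CPM in virgin S-961, 2064, 1869, 1368 and 750 in multipara S-961, 9.17 and 16.2 in virgin untreated and 22.2 and 25.2 in multipara untreated. It rose by 5.87 ± 0.66 (SE, adjusted p = 2.22e-04) and 5.94 ± 0.66 (adjusted p = 1.73e-04). The 3 measured elastases rose in both groups. *Ctrc*, chymotrypsin C, which degrades trypsinogen, moved least among the proteases (1.36 ± 0.59, adjusted p = 0.0965, in virgin and 1.79 ± 0.55, adjusted p = 0.0255, in multipara mice). Virgin mice passed without virgin S-961 3 (adjusted p = 0.0375), and in the multipara mice the call was lost without multipara S-961 1 (adjusted p = 0.0564) or without multipara untreated 1 (0.189). The annotation ends *Ctrc* and *Cela2a* at the same base (chromosome 4, from 141814962 to 141846359 and to 141826160, both minus strand), and both carried counts that were not whole in 7 libraries. The value of *Ctrc* is therefore uncertain, because reads of the shared stretch had to be divided between both genes.

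Carboxypeptidases trim residues from the end of the peptides that the endopeptidases release. *Cpa1* was at 633, 789 and 210 CPM in virgin S-961, 1308, 1073, 840 and 538 in multipara S-961, 5.15 and 10.6 in virgin untreated and 14.9 and 14.1 in multipara untreated, and rose with S-961 by 6.10 ± 0.68 (SE, adjusted p = 2.16e-04) and 5.97 ± 0.67 (adjusted p = 1.85e-04). *Cpb1* was at 455, 617 and 139 CPM in virgin S-961, 1080, 935, 776 and 391 in multipara S-961, 2.62 and 2.82 in virgin untreated and 5.67 and 6.95 in multipara untreated. Its changes, 7.20 ± 0.76 (SE, adjusted p = 1.64e-04) and 6.93 ± 0.73 (adjusted p = 1.47e-04), were larger than those of *Cpa1* in point value. For neither gene did the ranges of treated and untreated libraries touch.

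The lipolytic members act on dietary fat. *Cel*, the bile salt-activated lipase, was at 553, 682 and 165 CPM in virgin S-961, 1217, 937, 738 and 475 in multipara S-961, 1.82 and 3.75 in virgin untreated and 4.85 and 7.81 in multipara untreated. It had the greatest fold change of the 29 tested members in each parity group, at 7.38 ± 0.78 (SE, adjusted p = 1.66e-04) and 7.01 ± 0.76 (adjusted p = 1.57e-04) on the log2 scale. *Pnlip*, the main triglyceride lipase (chromosome 19, 58652498 to 58681788, plus strand), was at 610, 781 and 193 CPM in virgin S-961, 1641, 1566, 1128 and 514 in multipara S-961, 9.55 and 18.9 in virgin untreated and 13.6 and 16.7 in multipara untreated, and rose by 5.20 ± 0.73 (SE, adjusted p = 5.87e-04) and 6.27 ± 0.76 (adjusted p = 2.70e-04). *Clps*, the colipase that anchors it to lipid droplets, rose less in point value (3.52 ± 0.57, adjusted p = 0.00118, and 4.23 ± 0.59, adjusted p = 4.96e-04). All 6 lipolytic members rose in both parity groups.

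*Rnase1*, the secreted pancreatic ribonuclease, and the granule proteins behaved like the enzymes. *Rnase1* was at 174, 238 and 58.0 CPM in virgin S-961, 436, 384, 309 and 154 in multipara S-961, 2.80 and 4.59 in virgin untreated and 5.37 and 5.97 in multipara untreated, and rose by 5.39 ± 0.69 (SE, adjusted p = 3.82e-04) and 5.77 ± 0.69 (adjusted p = 2.52e-04). *Gp2*, the main glycoprotein of the zymogen granule membrane, was at 55.3, 69.3 and 18.4 CPM in virgin S-961, 124, 117, 94.3 and 50.2 in multipara S-961, 0.455 and 0.443 in virgin untreated and 1.04 and 0.677 in multipara untreated. It rose by 6.70 ± 0.75 (SE, adjusted p = 2.16e-04) and 6.71 ± 0.72 (adjusted p = 1.51e-04). *Zg16*, a granule lectin, was at 86.6, 118 and 38.8 CPM in virgin S-961, 240, 218, 209 and 90.3 in multipara S-961, 4.21 and 6.52 in virgin untreated and 7.10 and 7.26 in multipara untreated, and rose less in point value (3.90 ± 0.55, adjusted p = 6.11e-04, and 4.67 ± 0.57, adjusted p = 2.64e-04). *Sycn*, syncollin, rose by 5.46 and 5.51.

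The amylases need a separate reading, because the pancreatic amylase genes on chromosome 3 are near-identical copies. *Amy2a5* was at 1312, 1469 and 353 CPM in virgin S-961 and 3399, 3429, 2536 and 782 in multipara S-961, but at 0.303 and 85.6 in virgin untreated and 48.8 and 0.80 in multipara untreated. Within each untreated group 1 library was thus near 0 and the other was not. *Amy2a2*, *Amy2a3* and *Amy2a4* carried identical values in every library and ran the other way (22.3 and 3.22 CPM in virgin untreated and 23.6 and 39.4 in multipara untreated), and *Amy2a1* was listed at 0 in all 4 untreated libraries but at 153 to 1189 CPM with S-961. The sum of *Amy2a1* to *Amy2a5* was even, at 5354, 6978 and 1885 CPM in virgin S-961, 12097, 11368, 8936 and 4783 in multipara S-961, 67.3 and 95.3 in virgin untreated and 119 and 119 in multipara untreated. *Amy2a5* alone did not pass in virgin mice (4.60 ± 1.81, adjusted p = 0.0689, or 11.71 with adjusted p = 0.0214 without virgin untreated 2) and passed in multipara mice (6.6 ± 1.99, adjusted p = 0.0240), where the call was lost without multipara untreated 2 (adjusted p = 0.0939), and DESeq2 called it in both. The sum rose in both, by 5.85 ± 0.64 (SE, adjusted p = 2.00e-04) and 6.23 ± 0.65 (adjusted p = 1.37e-04). *Amy1*, the salivary and liver form, moved little (0.84 ± 0.36, adjusted p = 0.0874, and 1.43 ± 0.35, adjusted p = 0.00957, or 0.0820 without multipara untreated 2).

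The secreted members rose and fell together across the S-961 libraries. With the summed CPM of the secreted members other than the amylases as the reference (6636, 8863 and 2289 in virgin S-961 and 16240, 14410, 10900 and 5812 in multipara S-961), the reference itself differed 7.1-fold between the lowest and highest S-961 library. Of 21 secreted members with a mean of at least 10 CPM there, CPM differed 5.15- to 10.7-fold between libraries. Their percent of the reference differed only 1.07-fold (*Cela1*, 7.46 to 8.0%) to 1.77-fold (*Amy2a5*), with a median of 1.25-fold, and all 21 stayed under 2-fold. The members are counted in the same libraries and most enter the reference, so this is a description. Percentages overlapped between virgin and multipara S-961 in 19 of the 21, and 1 was higher and 1 lower in all multipara libraries. That is near the share of all genes without overlap in CPM, 5.20% higher and 3.68% lower. *Sycn* was lower in all multipara libraries (1.63, 1.56 and 1.52% in virgin and 1.02, 1.24, 1.03 and 1.45% in multipara S-961) and *Pla2g1b*, the secreted phospholipase A2, was higher (0.159, 0.129 and 0.148% against 0.222, 0.224, 0.201 and 0.164%). In both genes multipara S-961 4 lay nearest the virgin range.

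Untreated libraries held less acinar RNA, and the percent of it taken by some members was different. Of the 21 members, 6 took a larger percent of the reference in every untreated library than in any S-961 library and 8 a smaller one. Such percentages were not formed for all genes, so these counts have no share of all genes beside them. In CPM, 22.3 to 34.4% of all genes did not overlap between treatments, per direction and parity group. That is an unlike measure, taken within a parity group and not over both. The counts of 6 and 8 are not far from it and are not read as a result about the members. *Clps* made up 7.71 to 12.7% without S-961 and 2.75 to 3.57% with it, *Cela1* 12.7 to 18.4% against 7.46 to 8.0%, and *Zg16* 3.30 to 4.02% against 1.31 to 1.92%. *Pla2g1b*, *Cela3b* and *Try5* were also larger. *Cel* made up 1.74 to 3.59% without S-961 and 6.50 to 8.34% with it, *Cpb1* 1.64 to 3.20% against 6.06 to 7.12%, and *Gp2* 0.258 to 0.483% against 0.764 to 0.865%. *Prss2*, *Ctrl*, *Cela2a*, *Cpa1* and *Pnliprp2* were also smaller. The percentages of *Rnase1* overlapped (2.50 to 2.74% against 2.53 to 2.84%). Counts behind these percentages were low without S-961, for example 48 to 127 for *Cel* and 11 to 24 for *Gp2*.

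**Figure D3:**
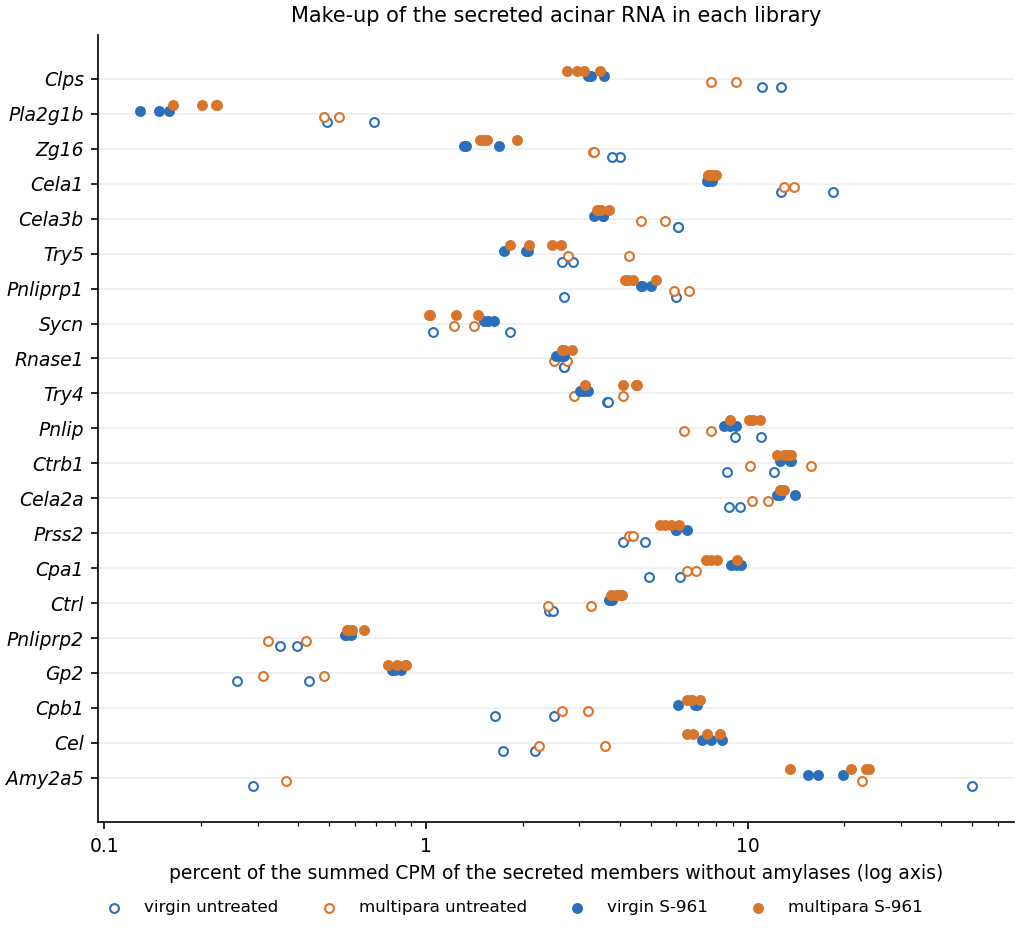
Percent of the summed CPM of the secreted members without the amylases taken by each of 21 members (log axis), with 1 point per library, filled for S-961 and open for untreated, blue for virgin and orange for multipara. S-961 points cluster tightly for each gene, and untreated points lie to the right for genes at the top, such as *Clps*, and to the left for genes near the bottom, such as *Cel*.

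The transcription factors did not follow the enzymes as one. *Bhlha15* was at 137, 133 and 134 CPM in virgin S-961, 104, 106, 45.9 and 126 in multipara S-961, 43.7 and 31 in virgin untreated and 25 and 33.5 in multipara untreated. Treated and untreated libraries did not overlap, and it rose with S-961 by 1.83 ± 0.35 (SE, adjusted p = 0.00266) in virgin and 1.66 ± 0.34 (adjusted p = 0.00377) in multipara mice on the log2 scale. Its level stayed within 133 to 137 CPM across the virgin S-961 libraries, where the reference sum of secreted members ran from 2289 to 8863 CPM. Relative to that sum *Bhlha15* varied 13.9-fold over the S-961 libraries (0.421 to 5.86%) and stood at 11.6 to 41.8% without S-961. All 4 multipara S-961 libraries were below all 3 virgin ones, as held for 3.68% of all genes. The difference did not pass the test (-0.49 ± 0.27, adjusted p = 0.607). The 25 secreted members tested had positive values in this comparison, 2 of them without overlap.

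*Rbpjl*, which codes for the acinar partner of PTF1A (chromosome 2, 164403141 to 164415448, plus strand), was at 2.14, 3.63 and 0.431 CPM in virgin S-961, 4.93, 3.6, 3.84 and 2.94 in multipara S-961, 0.265 and 0.443 in virgin untreated and 0.996 and 0.677 in multipara untreated. Virgin S-961 3 overlapped the untreated libraries. It rose by 2.52 ± 0.75 (SE, adjusted p = 0.0220) and 2.13 ± 0.69 (adjusted p = 0.0323), and the virgin call was lost without virgin S-961 2 (adjusted p = 0.0716), virgin untreated 1 (0.153) or virgin untreated 2 (0.0890). The multipara call was lost without multipara S-961 1 (0.0671), multipara untreated 1 (0.107) or multipara untreated 2 (0.163). Over the S-961 libraries *Rbpjl* stayed nearer to the enzymes than *Bhlha15* did, at 0.0188 to 0.0506% of the reference, as did *Nr5a2* at 0.0105 to 0.0304%. Across treatments they did not stay near, with 0.253 to 0.463% for *Rbpjl* and 0.342 to 0.905% for *Nr5a2* without S-961. *Ptf1a* (chromosome 2, 19445663 to 19447501, plus strand) was at 0.744, 0.393 and 0.133 CPM in virgin S-961, 1.68, 0.864, 0.788 and 0.119 in multipara S-961, 0.0758 and 0 in virgin untreated and 0 and 0.185 in multipara untreated. These values rest on at most 61 counts, and neither change passed (3.30 ± 1.51, adjusted p = 0.110, and 3.28 ± 1.39, adjusted p = 0.0849, the latter 0.0409 without multipara S-961 4). *Nr5a2* (chromosome 1, 136842571 to 136960448, minus strand) was at 1.21, 1.36 and 0.697 CPM in virgin S-961, 1.71, 2.23, 2.34 and 1.07 in multipara S-961, 0.948 and 0.967 in virgin untreated and 0.736 and 1.29 in multipara untreated. Its groups overlapped throughout between treatments, at 0.17 ± 0.46 (adjusted p = 0.802) and 0.82 ± 0.45 (adjusted p = 0.171).

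**Figure D4:**
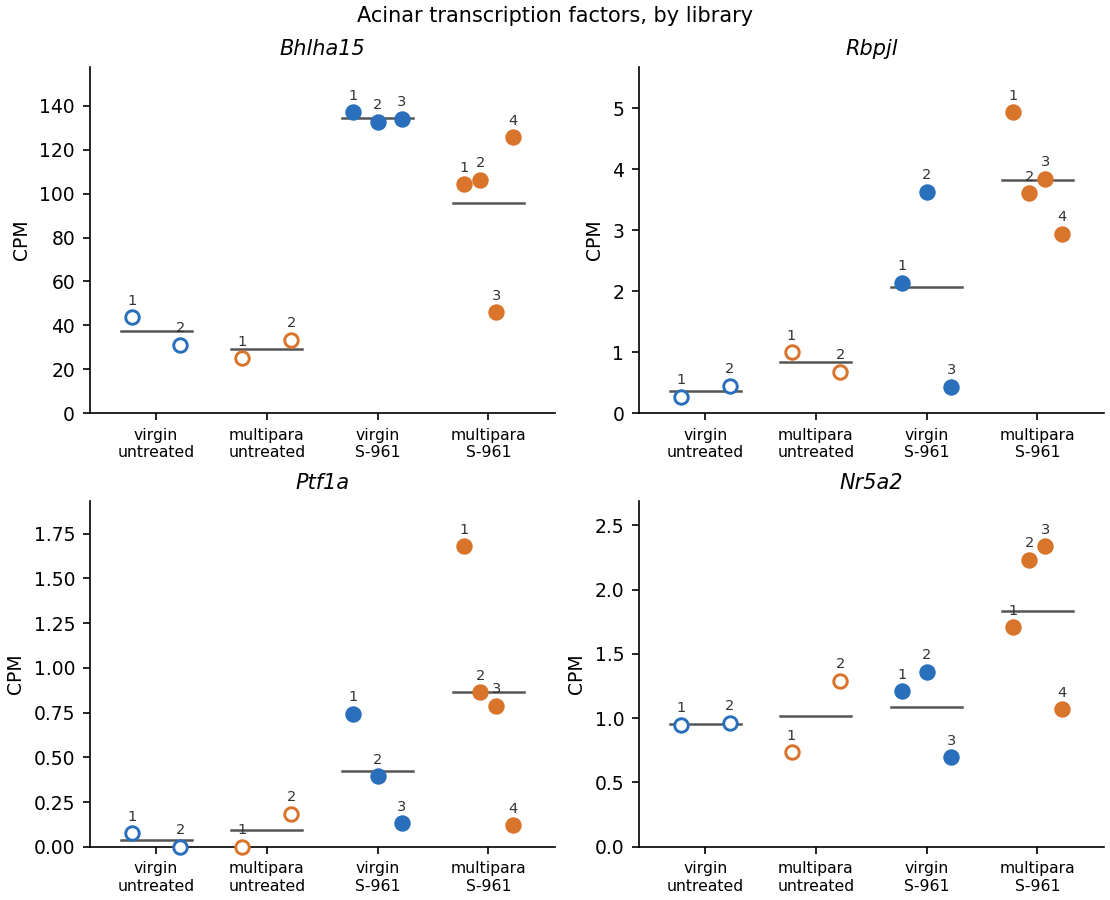
CPM of the 4 acinar transcription factors in each library (linear axes from 0), with replicate numbers and lines at group means, filled points for S-961 and open points for untreated. *Bhlha15* is level across virgin S-961 libraries and lower in multipara S-961 3, whereas *Rbpjl* and *Ptf1a* are lowest in virgin S-961 3 or multipara S-961 4 within their S-961 groups.

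Islets labelled multipara and virgin were compared under S-961 because the study tested whether islets after repeated pregnancies can still respond to insulin resistance. No member was called (0 of 29, and 0% of 16784 genes in either direction), while 12 members had an unadjusted p under 0.05, where 9.71% of all genes did, and DESeq2 called 2, where it called 2.13% of all genes higher. The median log2 fold change of the 25 secreted members was 1.05, against 0.00 for all genes, and all 25 had a positive value (0.54 to 2.02). Groups did not overlap for 2 higher members, *Ctrc* and *Amy1*, and 1 lower one, *Bhlha15*, where 5.20% of all genes were higher and 3.68% lower without overlap. *Ctrc* had the lowest adjusted p (0.992, 0.937 and 0.365 CPM in virgin against 3.72, 3.46, 3.56 and 1.52 in multipara S-961, 2.02 ± 0.46, adjusted p = 0.315). It passed without multipara S-961 4 (2.24, adjusted p = 0.0210, with 2.69% of all genes called higher) and under DESeq2 (2.0, adjusted p = 0.00301), which also called *Pla2g1b* (1.56, adjusted p = 0.0346). Without multipara S-961 4 the secreted median was 1.29.

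The order of the S-961 libraries was nearly the same for every enzyme. Virgin S-961 3 was lowest in all 25 measured secreted members, and multipara S-961 1 was highest in 22 and multipara S-961 2 in 3. Multipara S-961 1, 2 and 3 were each above all virgin libraries in 23 members, and multipara S-961 4 was below the other multipara libraries in 25 and inside the virgin range in 23. The secreted median therefore depended on single libraries. It was 0.654 without virgin S-961 3 and 1.49 without virgin S-961 2, with 0 members called in both cases. *Pnlip* had a log2 fold change of 1.22 ± 0.50 (SE, adjusted p = 0.485), *Zg16* of 1.24 ± 0.42 (adjusted p = 0.369), *Try4* of 1.47 ± 0.53 (adjusted p = 0.402), *Ctrb1* of 1.02 ± 0.48 (adjusted p = 0.540) and *Cel* of 0.87 ± 0.46 (adjusted p = 0.590).

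**Figure D5:**
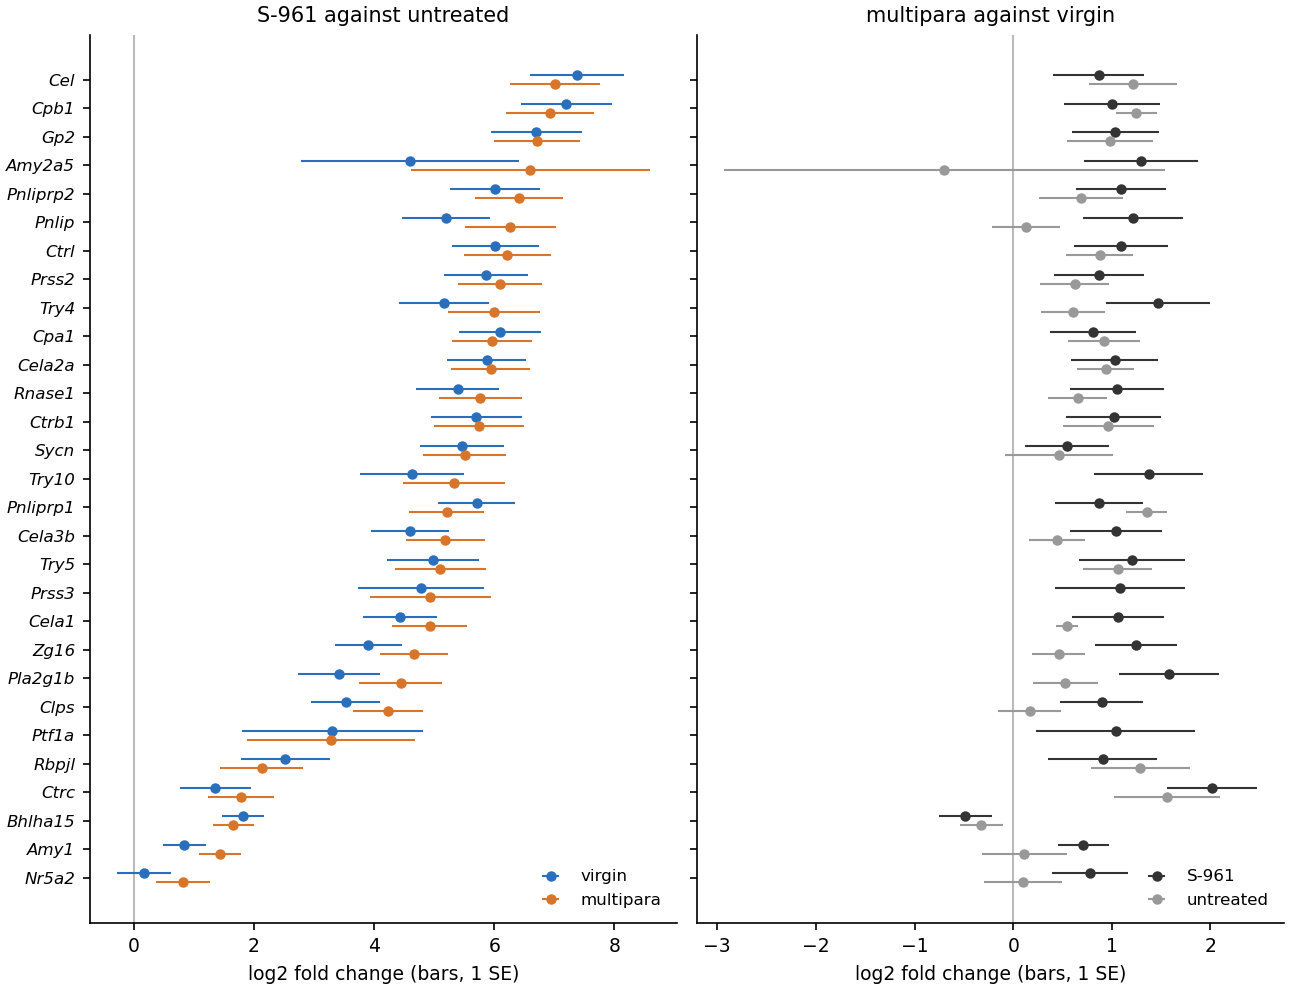
Log2 fold change (points) with 1 SE (bars) of the 29 members for S-961 against untreated (left, by parity) and for multipara against virgin (right, with S-961 and untreated; 26 members were tested untreated). Enzymes lie mostly between 3 and 7 on the left and near 1 on the right, *Bhlha15* is below 0 on the right, and *Amy2a5* has the widest bars.

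Without S-961 the same comparison asked whether earlier pregnancies alone had changed the islets. Of 26 members tested none was called (0% of 15812 genes in either direction), 7 had an unadjusted p under 0.05, where 5.62% of all genes did, and DESeq2 called 1, *Pnliprp1* (1.35, adjusted p = 0.00428), where it called 0.139% of all genes higher. The secreted median was 0.653, against 0.02 for all genes, with 0.446 without virgin untreated 1 and 1.14 without virgin untreated 2, and 22 of the 23 secreted members tested had a positive value, the exception being *Amy2a5* (-0.70 ± 2.24). Multipara values were higher without overlap in 17 of 26 members, where 13.5% of all genes were. *Pnliprp1*, a relative of pancreatic lipase, was at 6.25 and 4.59 CPM in virgin and 12.7 and 14.3 in multipara untreated libraries (1.35 ± 0.21, adjusted p = 0.719), and *Cpb1* was at 1.25 ± 0.21 (adjusted p = 0.719). Without multipara untreated 2, 4 members were called (*Try5*, *Cela1*, *Cpb1* and *Pnliprp1*), where 8.8% of all genes were called higher, and without multipara untreated 1 only *Pnliprp1* was (adjusted p = 0.0311), where 0.135% were. Either fit leaves 1 multipara library, which is assumed to vary like the virgin pair, and the library that remains in the first is the one with high immune and dividing-cell RNA. Apart from *Amy2a5*, no secreted member exceeded 33.9 CPM (*Ctrb1*) in an untreated library.

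The parity effect did not differ detectably between treatments. In the interaction test none of 29 members was called (0% of 17996 genes in either direction), none had an unadjusted p under 0.05, and DESeq2 also called none. The median interaction of the secreted members was 0.378 on the log2 scale, against -0.04 for all genes, and it ran from -0.0208 without virgin S-961 3 to 0.765 without virgin S-961 2. The tested members ran from -0.50 (*Pnliprp1*) to 2.01 (*Amy2a5*).

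Other secreted acinar genes were mostly higher with S-961 as well. Of 12 tested, with further amylase genes left out because they share reads, 8 were higher in virgin and 11 in multipara mice, where 18.8% and 18.2% of all genes were, and none was lower. Their medians were 3.34 and 4.96. *Reg1*, regenerating protein 1, was at 87.6, 137 and 39.9 CPM in virgin S-961, 283, 298, 293 and 91.9 in multipara S-961, 2.39 and 3.50 in virgin untreated and 4.89 and 6.03 in multipara untreated. *Dmbt1* stood apart at 239 and 35.8 CPM in virgin untreated, overlapping the virgin S-961 libraries (100, 148 and 32.2), and did not pass there (-0.58 ± 0.93, adjusted p = 0.662). Of 12 genes for acinar secretory machinery and receptors, 9 were higher and 1 lower in virgin mice and 8 higher and 1 lower in multipara mice, with medians of 3.28 and 3.79. The cholecystokinin receptor gene *Cckar* rose by 4.04 ± 0.85 (SE, adjusted p = 0.00428) and 5.20 ± 0.90 (adjusted p = 0.00157), from at most 0.260 CPM untreated to 1.13 to 7.71 CPM.

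A few machinery and factor genes ran differently from the enzymes. *Gatm*, the first enzyme of creatine synthesis, was at 112, 117 and 130 CPM in virgin S-961, 75.8, 85.4, 63.6 and 109 in multipara S-961, 28.2 and 22.0 in virgin untreated and 23.4 and 18.8 in multipara untreated. It rose with S-961 by 2.23 ± 0.23 (SE, adjusted p = 1.54e-04) and 1.93 ± 0.22 (adjusted p = 1.94e-04). Like *Bhlha15*, and like 3.68% of all genes, it was lower in every multipara S-961 library than in any virgin one (-0.51 ± 0.17, adjusted p = 0.370). *Vamp8*, a granule SNARE, fell by 1.52 ± 0.19 (adjusted p = 3.81e-04) and by 1.76 ± 0.18 (adjusted p = 1.27e-04). Of 6 partner or wider pancreas factors, 2 were higher in virgin and 4 in multipara mice, against 18.8% and 18.2% of all genes, and 2 of 6 is near that share. *Rbpj* rose by 0.84 ± 0.14 (adjusted p = 0.00149) and 0.65 ± 0.14 (adjusted p = 0.00434), and *Xbp1*, a factor of the secretory stress response, did not pass (0.19 ± 0.17, adjusted p = 0.407, and 0.05 ± 0.16, adjusted p = 0.841).

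Markers of other cells moved with the acinar values as follows. The summed CPM of 9 beta cell markers, most of it from *Ins1* and *Ins2*, was 121000 to 240000 with S-961 and 443000 to 600000 without. The 9 markers did not move as one. With S-961, 3 were called higher and 3 lower in each parity group. With *Ins1* and *Ins2* left out of the library totals, 24 acinar members in virgin and 27 in multipara mice were called. The sum of 10 duct markers was 328 to 333 in virgin S-961, 344 to 469 in multipara S-961, 489 to 511 in virgin untreated and 386 to 438 in multipara untreated. With S-961, 1 duct marker was higher and 3 lower in virgin mice and 3 higher and 1 lower in multipara mice, where 18.8% of all genes were higher and 17.6% lower in virgin and 18.2% higher and 19.4% lower in multipara mice. The sum of 4 alpha cell markers was 14200 to 16000, 16500 to 24900, 50000 to 57100 and 25500 to 37900 in the same order of groups, that of 8 stromal markers 189 to 226, 274 to 430, 255 to 280 and up to 277, and that of 6 dividing-cell markers 10.7 to 28.8, 11.5 to 283, up to 15 and 6.65 to 83.5. Duct, alpha and stromal sums thus did not overlap between virgin and multipara S-961 and were higher in multipara. No share of all genes stands beside such sums. The like sum of the secreted members without amylases was 2289 to 8863 CPM in virgin and 5812 to 16240 in multipara S-961. It overlapped only through multipara S-961 4. Taken as single genes, 2 of the 25 secreted members tested were higher in multipara S-961 without overlap. Under S-961 the log2 fold change of multipara against virgin was positive in all 10 duct markers (median 0.46), all 4 alpha markers (0.48), all 8 stromal markers (1.36) and all 6 dividing-cell markers (3.10), with none called. Summed CPM was 3040 to 6230 and 10100 to 13000 for 3 delta and PP cell markers, and 444 to 611 and 567 to 692 for 6 endothelial markers. Of the immune markers *Cd3e* was at 0 in multipara S-961 2 and multipara untreated 2. The part of these cells in the acinar differences was not tested. The labels name no day of isolation, so that it cannot be told apart from treatment.

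Outside the members and the lists above, the genes whose log2 CPM was most like the mean of the secreted members over the 11 libraries, among 11246 genes with a mean log2 CPM of at least 2, were *Klf10* (Pearson r = 0.989), *Ccp110* (0.983), *3110039I08Rik* (0.982), *Amy2a1* (0.979), *Ccdc162* (0.979) and *Ctdspl2* (0.978). The libraries fall into treated and untreated ones and share that split, so these values describe mainly the treatment. *Klf10*, a zinc finger factor of the TGF-beta response, was at 31.4 to 55.7 CPM with S-961 and 15.9 to 19.0 without. *Amy2a1* is itself a pancreatic amylase gene.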

How the data were processed

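Islet poly(A) RNA of 11 libraries (TruSeq Stranded mRNA) was measured. For each library the authors deposited expected counts (estimated counts of reads per gene), not normalized. The submitters' processing notes name STAR, RSEM and GRCm38 (mm10), with versions not given in the sources used here. All 55536 gene identifiers matched GENCODE M21, from which positions and exon lengths were taken. Fractional estimated counts, which arise where reads are divided between similar genes, were rounded for testing. Labels do not say whether each library is a separate animal, so p-values measure the spread between these samples.

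Tests used edgeR 4.0.16 in R 4.3.3 (TMM, filterByExpr with a minimum count of 10 and total of 15, quasi-likelihood F-test, Benjamini-Hochberg, threshold 0.05). Each parity comparison was fitted on the libraries of that treatment alone, and the treatment and interaction tests on all 11 libraries. The SE was the log2 fold change divided by the square root of F. CPM used TMM over all 11 libraries. Promoters came from RefSeq. Alternatives were size factors, no filter, DESeq2 1.42.0, totals without acinar or insulin genes, a replicate block, single libraries left out, all 11 libraries fitted together and, chosen after seeing the data, *Amy2a1* to *Amy2a5* summed. Fits were tested on simulated data. Named individually were the 4 transcription factors, in each role the member with the highest mean log2 CPM, the 6 members with the lowest adjusted p, and those that passed no filter. Others named were chosen after their values were seen. The other acinar lists, cell type markers and motifs came from general knowledge. The members and all lists were chosen with earlier results of these data known. No library repeated another (chi-square per gene 8.90 to 117 between libraries of a group). Exact binomial intervals are at 95% confidence. Figures were drawn with matplotlib 3.10.9 in Python 3.11.15.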

Additional observations from a re-analysis of the deposited data

Results flagged for a closer look

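In the group of 4 multipara S-961 libraries, 33 items (the members, their summed measures) were tested for 1 library far from the rest by Dixon's ratio at its 95% limit for 4 samples, and chance alone marks about 1 in 20 such groups. *Ctrc* was 1.52 CPM in multipara S-961 4, with a ratio of 0.918, and *Zg16* was 90.3 CPM in the same library, with a ratio of 0.862. Both values lay below those of the other 3 multipara libraries, as they did for all 25 measured secreted members.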

How the results depend on the processing

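For the members named by the rule, in the parity and treatment comparisons, 933 single-gene values were recomputed under alternative settings. Of these, 908 kept their direction and their side of the threshold, 7 lost a call, 10 gained one and 8 changed sign without a call. Calls of *Ctrc*, *Prss3* and *Amy1* that were lost are given beside their values above. Interaction values are not among these 933. For 12 of 15 such members the interaction changed sign under some alternative, and none passed (lowest adjusted p 0.350). Sign changes for multipara against virgin untreated were *Pnlip* at -0.28 without virgin untreated 1 and -0.01 without multipara untreated 2, *Nr5a2* at -0.32 without multipara untreated 2, and *Amy2a5* at 0.04 with the replicate block, 6.38 without virgin untreated 2, 0.24 without multipara untreated 2 and 0.59 with *Amy2a1* to *Amy2a5* summed. For S-961 in virgin mice *Nr5a2* was at -0.03 without virgin S-961 2. With single libraries left out, these ranged from -0.28 to 0.69 (*Pnlip*), -5.73 to 6.38 (*Amy2a5*) and -0.32 to 0.44 (*Nr5a2*) untreated, and from -0.03 to 0.41 for *Nr5a2* with S-961 in virgin mice. The cause was not tested.

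With S-961, multipara against virgin gave 2 members and 369 genes under DESeq2 (358 higher, 11 lower), 2 members and 342 genes with the replicate block (309 higher, 33 lower), and 0 to 1 members and 0 to 525 genes with single libraries left out, the highest without multipara S-961 4. Untreated, it gave 3 genes without a filter, 1 member and 56 genes under DESeq2, and 0 to 4 members and 0 to 1735 genes with single libraries left out. The interaction gave 4 genes without a filter, 81 under DESeq2, 34 with the replicate block and 0 to 45 with single libraries left out, and no member in any of these, with a secreted median of 0.684 and 5 members at an unadjusted p under 0.05 with the block. S-961 against untreated gave 3053 to 7466 genes in virgin and 3618 to 7451 in multipara mice with single libraries left out, against 6562 and 6768. Members called there ran from 22 to 25 and from 24 to 28.

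Same-numbered S-961 libraries did not deviate together (correlations of 0.012 to 0.092). Same-numbered untreated libraries gave 0.281, and with 2 libraries a group the other pairings give -0.281 by construction. Across treatments, same numbers gave -0.094 to 0.102 in virgin and -0.015 to 0.124 in multipara mice. The replicate numbers were not taken as pairs in the main fits. In the multipara comparison of treatments the replicate block added *Ptf1a* (3.94, adjusted p = 0.0441), and it changed no other call of a member than this one and those given above.

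The mean log2 CPM of the transcription factors in virgin untreated was -0.24 with a prior count of 0.5 and 0.56 with totals without *Ins1* and *Ins2*, against 0.15. For the secreted members in multipara untreated it was 1.59 and 2.20, against 1.78, and their share was 0.0319% of counts without insulin, against 0.0197%. With single libraries left out, the ratio of mean secreted shares ran from 37.8 to 89.8 for S-961 in virgin mice and from 0.953 to 2.26 for multipara against virgin untreated (chosen after seeing the data). Depth limited *Ptf1a*, *Prss1* and *Cela3a*, and low untreated counts limited the fold changes of *Prss3* and *Try10*.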
